A study of Rattus norvegicus with 12 samples.

Results

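The miR-30 family was followed in the left ventricle of rats after myocardial infarction and after treatment with YQFM. Its members were chosen by name as 7 mature miRNAs, the 5p strands rno-miR-30a-5p, rno-miR-30b-5p, rno-miR-30c-5p, rno-miR-30d-5p and rno-miR-30e-5p and the 3p strands rno-miR-30a-3p and rno-miR-30e-3p, in which rno stands for rat. All 7 were present among the 758 rat miRNAs of the array, all 7 were detected on all 12 arrays, and all 7 were among the 263 miRNAs tested.

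The 12 male Wistar rats formed 3 groups of 4, with 1 single-dye Agilent array per rat. The MI rats, which the labels call the chronic heart failure group, had the left anterior descending artery of the heart tied off and then received saline. The Sham rats were operated on without this ligation and received saline as well, and the YQFM rats had the ligation and received YQFM, an injection prepared from botanical drugs, at 5 mg/kg/d for 28 days, starting 4 weeks after surgery. The age of the rats was not given in the sources used here. RNA came from tissue near the infarction area, so the samples held a mixture of cells, and a lower signal from fewer cells of a type cannot be told apart from less of the miRNA per cell.

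MiRNAs are short RNAs that guide the silencing complex to messenger RNAs, mostly through pairing of the bases near their 5′ end, the seed. Members of the miR-30 family share one seed on their 5p strands, are abundant in cardiac muscle cells and are known to repress Ccn2, a matricellular protein that promotes the deposition of collagen. The 3p strands come from the other side of the same hairpin precursors and carry seeds other than that of the 5p strands, so their targets differ from those of the 5p strands.

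The sequences show what the 5p members share and what tells them apart. Mature sequences from RefSeq (GRCr8) were found for 4 of the 7 members, and miR-30b-5p, miR-30d-5p and miR-30e-3p are given by name. Capitals mark the seed, bases 2 to 8.
miR-30a-5p: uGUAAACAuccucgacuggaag
miR-30c-5p: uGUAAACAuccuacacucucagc
miR-30e-5p: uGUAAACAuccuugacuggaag
miR-30a-3p: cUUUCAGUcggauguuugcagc
The seed of the first 3 was found in 4 of the 693 mature rat miRNAs of that table, the other one being miR-384-5p. The seed of miR-30a-3p was found in that miRNA alone, but miR-30e-3p was missing from the table and could not be counted. The bases of this seed also occur on the 3p side of the Mir30e hairpin printed below.

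The array did not read the seed in full, because its probes pair with the 3′ part of a miRNA. Each member had 2 probes that differed in length by 1 base, and the longer one of each member is printed here, 5′ to 3′. Capitals mark the bases that separate miR-30a-5p, miR-30e-5p and miR-30d-5p, those that separate the 3p strands, and the stretch of 13 bases that the probes of miR-30b-5p and miR-30c-5p have in common.
miR-30a-5p probe: cttccagtcGAggatg
miR-30e-5p probe: cttccagtcAAggatgt
miR-30d-5p probe: cttccagtcGGgga
miR-30b-5p probe: agctGAGTGTAGGATGT
miR-30c-5p probe: gctgaGAGTGTAGGATGT
miR-30a-3p probe: gctgCaaacatccgact
miR-30e-3p probe: gctgTaaacatccgactg
Counted from 1 at the 5′ end of the probe, the miR-30a-5p probe differed from that of miR-30e-5p by G10A and from that of miR-30d-5p by A11G. The probes of the 3p strands differed by C5T. The miR-30a-5p probe covered bases 7 to 22 of its mature miRNA, that of miR-30e-5p bases 6 to 22 and that of miR-30c-5p bases 6 to 23. How much of a probe's signal came from a relative that differs by 1 base was not measured, so the members are close relatives also in what their probes can bind.

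The members come from 3 places in the genome. The array annotation, which uses the build rn4, placed the miR-30e-5p probe at chr5:141365137-141365152 and the miR-30e-3p probe at chr5:141365178-141365194, with one of the miR-30c-5p positions nearby at chr5:141362141-141362158. It placed the miR-30a-5p probe at chr9:22142901-22142915 and the miR-30a-3p probe at chr9:22142941-22142956, with the other miR-30c-5p position at chr9:22162648-22162665. The miR-30d-5p probe lay at chr7:105819740-105819752, and the miR-30b-5p probe was listed as unmapped. In the GRCr8 annotation, Mir30e and Mir30c1 lie within Nfyc, which encodes a subunit of the transcription factor NF-Y, and Mir30b and Mir30d lie next to each other within the locus LOC102551574. Whether these genes lie in exons or introns of their hosts was not examined. The signal of miR-30c-5p can come from Mir30c1 and from Mir30c2, since both give the same mature miRNA.

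The strand pairs measured here can be seen in the hairpins (RefSeq, GRCr8). In Mir30a, capitals mark miR-30a-5p and miR-30a-3p, and in Mir30e they mark miR-30e-5p and the bases complementary to the longer miR-30e-3p probe.
Mir30a: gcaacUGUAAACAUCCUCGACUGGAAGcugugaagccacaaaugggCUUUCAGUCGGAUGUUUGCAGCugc
Mir30e: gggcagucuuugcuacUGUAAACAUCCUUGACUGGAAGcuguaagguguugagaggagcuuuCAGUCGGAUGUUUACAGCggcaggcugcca

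Before the comparisons, 2 features of the arrays have to be stated. The arrays lay on 3 slides that were nearly separated by group, with MI replicates 1 to 3 on slide 1, MI replicate 4 and YQFM replicate 1 on slide 2, and all Sham arrays with YQFM replicates 2 to 4 on slide 3, so that MI and Sham arrays never shared a slide. The source name put MI replicate 4 in the Sham group and Sham replicate 4 in the YQFM group, and both arrays were kept in the group of their title, description and group entry. Results are therefore given with and without these arrays and with the slide as a block. With the slide as a fixed block, MI replicates 1 to 3 add nothing to MI against Sham, since slide 1 held no other group. That comparison then rests on MI replicate 4 and its difference from YQFM replicate 1. Between 211 and 268 miRNAs were detected per array, and 24.5% to 31.5% of the spots were well above background, with the lowest share on MI replicate 3 and no saturated spot. MiRNAs known from cardiac muscle cells were measured in all groups, with a summed scaled signal from 9208 to 13406 over the 6 on the list, of which miR-208b-3p was detected on no array.

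Levels are given as log2 of the scaled signal, the probe intensity brought to a common 75th percentile per array. Because probes differ in how strongly they bind, a level was compared only with the same miRNA on other arrays. The means of 6 of the 7 members were in the order Sham, YQFM, MI, and for miR-30a-3p the order was Sham, MI, YQFM. Apart from miR-30d-5p between Sham and MI, neighbours and ends of these orders did not pass the test described next.

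MI was compared with Sham to see how the members differed in the infarcted heart. The means of all 7 members were lower in MI, and 1 of them, miR-30d-5p, passed the threshold of adjusted p 0.05 (limma, two-sided, Benjamini-Hochberg over the 263 miRNAs). Over all miRNAs tested 7.22% were called in this comparison, 6.84% (18 of 263) as lower and 0.38% as higher in MI. At an unadjusted p under 0.05, 4 of the 7 members were lower, against 25.1% of all miRNAs tested. The median log2 ratio of MI to Sham was -0.38 over the 7 members and -0.04 over the 263 miRNAs, of which 57.4% had a lower mean in MI.

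rno-miR-30d-5p, encoded next to miR-30b, fell in MI. Its log2 signal was 7.43, 7.34, 7.36 and 7.36 in Sham replicates 1 to 4, and 7.01, 6.93, 6.89 and 7.13 in MI replicates 1 to 4. Every MI array, including the one with the conflicting label, lay below every Sham array, and the Sham arrays lay closer together than the MI arrays. The means were 7.37 ± 0.04 (SD, n = 4) in Sham and 6.99 ± 0.11 in MI, a decrease by 0.38 on the log2 scale (standard error 0.0828, limma adjusted p = 0.0219), or 23.3% of the signal. Its 2 probes gave log2 ratios of -0.37 and -0.39. Without MI replicate 4 the ratio was -0.43 (adjusted p = 0.00443), without both arrays with conflicting labels -0.43 (adjusted p = 0.00916), and without Sham replicate 4 alone -0.38 (adjusted p = 0.0652). With the slide as a fixed block it was -0.29 (standard error 0.168, adjusted p = 0.625), a value that depends on the single MI array sharing a slide with a YQFM array, and with the slide as a random block -0.35 (adjusted p = 0.463). Of the 27 alternatives tried, all gave a lower mean in MI, although some of them cannot change the ratio, and 13 gave an adjusted p past the threshold. Slide and group could hardly be told apart in this comparison.

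rno-miR-30e-5p, from the hairpin within Nfyc, had the largest difference in means among the members and missed the threshold. The log2 signals were 7.66, 7.69, 7.73 and 7.79 in Sham and 7.10, 6.81, 7.11 and 7.62 in MI, again in the order of the replicates. The groups did not overlap, although MI replicate 4 lay just under the lowest Sham array and far above the other MI arrays. Between MI and Sham the log2 ratio was -0.56 (standard error 0.157, limma adjusted p = 0.0520), and both probes gave it alike, at -0.57 and -0.55. Without MI replicate 4 it was -0.71 (adjusted p = 0.00313), and with the slide as a fixed block it turned to 0.14 (adjusted p = 0.880). The latter value rests on MI replicate 4, the only MI array on a slide with another group. With miR-30d-5p, 2 of the 7 members had no overlap between MI and a higher Sham group, against 11.8% of all miRNAs tested.

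Its partner strand, rno-miR-30e-3p, had log2 signals of 5.08, 4.82, 4.69 and 5.05 in Sham and 4.42, 4.25, 4.26 and 4.93 in MI. MI replicates 1 to 3 lay below all Sham arrays and MI replicate 4 lay among them. The log2 ratio was -0.44 (standard error 0.158, limma adjusted p = 0.0861). Without MI replicate 4 it was -0.60 (limma adjusted p = 0.00538). With the slide as a fixed block, where the value rests on MI replicate 4 among the MI arrays, it was 0.00033. The shorter of its probes was detected on 7 of the 12 arrays, and both probes gave a lower mean in MI.

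rno-miR-30b-5p, encoded beside miR-30d, had the widest spread of the family. Sham replicates 1 to 4 gave 6.88, 6.55, 6.81 and 6.69 on the log2 scale, and MI replicates 1 to 4 gave 6.24, 5.91, 5.87 and 6.99. MI replicates 1 to 3 lay below every Sham array, whereas MI replicate 4 lay above every Sham array. The SD was 0.52 in MI and 0.15 in Sham, and the log2 ratio of -0.48 (standard error 0.216, limma adjusted p = 0.168) was not called. Without MI replicate 4 it was -0.72 (adjusted p = 0.00435), and with the slide as a fixed block it was -0.00028 (adjusted p = 1). Under that block MI replicates 1 to 3 add nothing, so the value rests on MI replicate 4.

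rno-miR-30c-5p, which can be made from 2 hairpins, had log2 signals of 8.95, 8.47, 8.55 and 8.73 in Sham and 8.24, 8.27, 8.07 and 8.78 in MI. MI replicates 1 to 3 lay below all Sham arrays here too, and MI replicate 4 lay within the Sham range. The log2 ratio was -0.33 (standard error 0.159, limma adjusted p = 0.192), and it was -0.48 (adjusted p = 0.0220) without MI replicate 4. With the slide as a fixed block it was -0.072 (limma adjusted p = 0.952), resting on MI replicate 4 among the MI arrays. With the brightest probe alone it was -0.050 (adjusted p = 0.827), a setting that moved the median of all miRNAs by 0.19. At the reported scaling its 2 probes gave -0.47 and -0.30, the latter being the brighter.

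The hairpin of miR-30a gave the smallest differences. The log2 signals of miR-30a-5p were 8.79, 8.63, 8.67 and 8.75 in Sham and 8.60, 8.27, 8.30 and 8.74 in MI, a log2 ratio of -0.24 (standard error 0.116, limma adjusted p = 0.197). Those of miR-30a-3p were 5.58, 5.27, 5.33 and 5.49 in Sham and 5.52, 5.31, 5.14 and 5.39 in MI, a log2 ratio of -0.08 (standard error 0.109, limma adjusted p = 0.711). For miR-30a-5p MI replicate 4 alone lay within the Sham range, whereas the groups were mixed for miR-30a-3p, and the 95% interval of the miR-30a-3p ratio ran from -0.32 to 0.16. The ratio of miR-30a-3p turned to 0.014 when the arrays were scaled over all miRNAs, to 0.0019 after quantile normalization and to 0.20 with the brightest probe alone, a setting that moved the median of all miRNAs by 0.19. Under that same setting the ratio of miR-30a-5p was 0.0056.

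**Figure D1:**
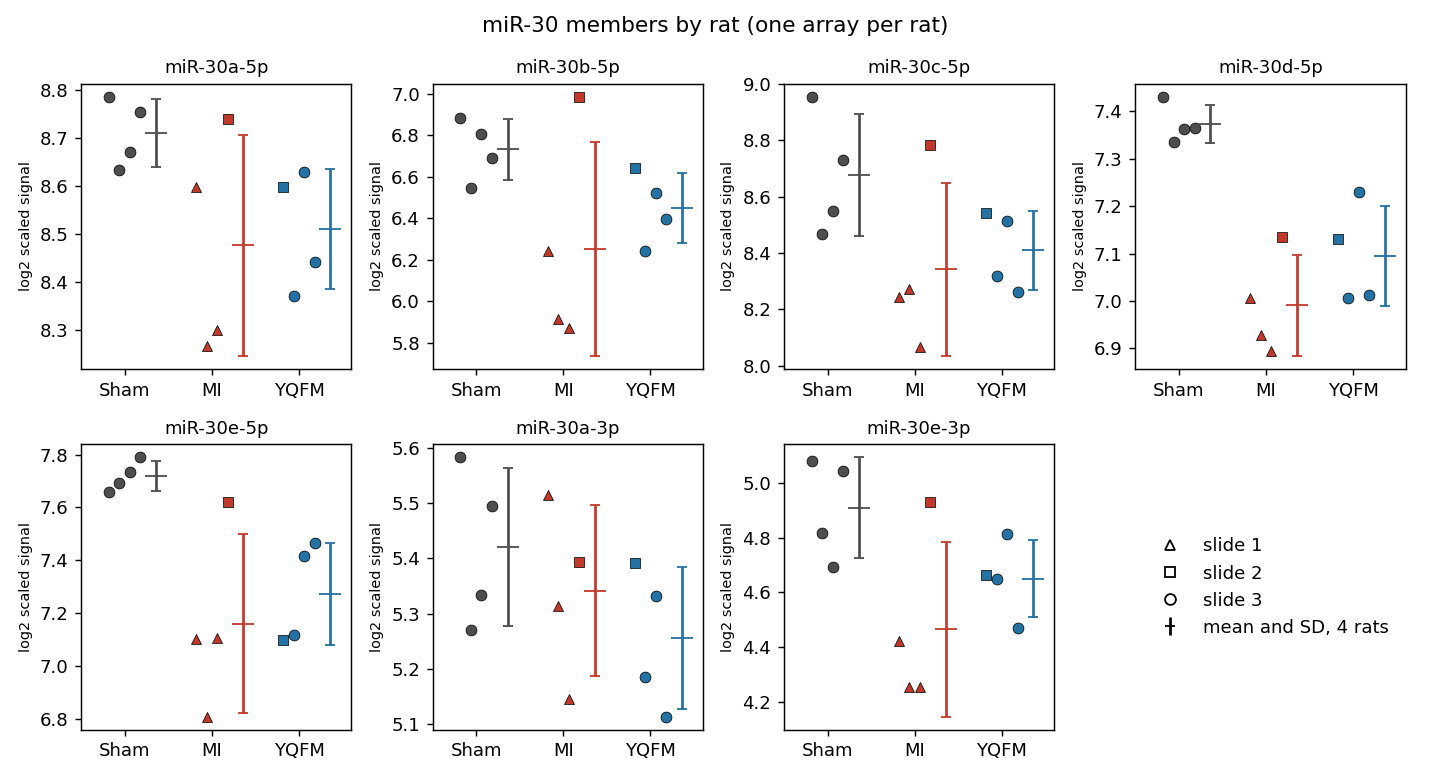
Log2 scaled signal (vertical axes, a separate range in each panel) of the 7 miR-30 members on each array, by group. Each point is 1 rat, its shape gives the slide, and the bars show mean and SD of 4 rats. All Sham arrays lie above all MI and YQFM arrays for miR-30d-5p and miR-30e-5p, and for miR-30b-5p MI replicate 4 (square) lies at 6.99, above every Sham array.

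MI replicate 4 differed from the other MI arrays in most members, as the plot of signals by rat shows. Against the mean of MI replicates 1 to 3 it was higher by 0.98 on the log2 scale for miR-30b-5p, by 0.62 for miR-30e-3p and miR-30e-5p, by 0.59 for miR-30c-5p and by 0.35 for miR-30a-5p. The differences were 0.19 for miR-30d-5p and 0.07 for miR-30a-3p. Its values lay within the Sham range for 4 of the 7 members, above it for miR-30b-5p, and below it for miR-30d-5p and miR-30e-5p. This array also had the highest 75th percentile before scaling and the most detected miRNAs. Without it 5 of the 7 members were called lower in MI than in Sham (limma), all but the strands of miR-30a. Over all miRNAs tested, 62 of 263 were called without this array, 53 of them as lower in MI. Without YQFM replicate 1, 2 members and 29 of 263 miRNAs were called between MI and Sham. No member was called without MI replicate 2 or MI replicate 3 (4 of 263 miRNAs each). The same held without Sham replicate 1 or Sham replicate 4 (7 of 263 miRNAs each). The summed scaled signal of the 5p members, in which brighter probes weigh more, averaged 1315 ± 94.2 for Sham (SD, n = 4), 1043 ± 201 for MI and 1087 ± 83.1 for YQFM. MI replicates 1 to 3 had 68.3% to 78.5% of the Sham mean of this sum and MI replicate 4 had 101%.

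**Figure D2:**
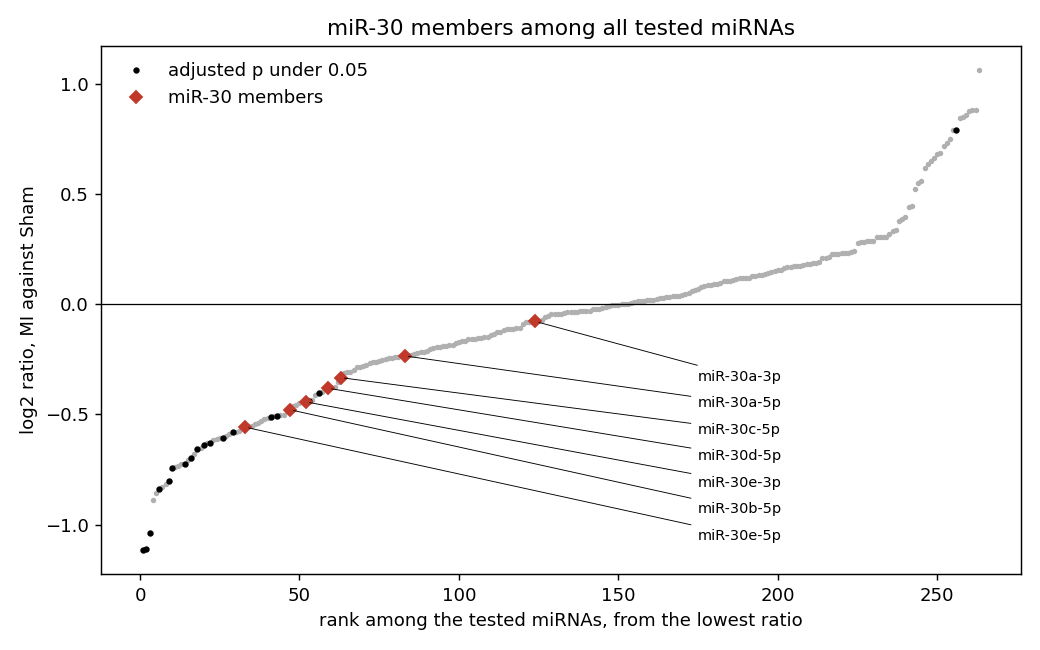
Log2 ratio of MI to Sham (vertical axis) of the 263 tested miRNAs, ranked from the lowest (horizontal axis). Diamonds mark the miR-30 members and black points the miRNAs with an adjusted p under 0.05 (limma), and the members run from miR-30e-5p at rank 33 to miR-30a-3p at rank 124, with miR-30d-5p, which was called, at rank 59.

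miR-30d-5p was not among the largest differences, as its place in the ranked ratios shows. Its ratio was the 59th lowest of 263, but by p-value it was the 8th, the spread between its arrays being small. The log2 ratio of miR-30e-5p was larger and that of miR-30b-5p was larger as well, and their standard errors were 0.157 and 0.216 against 0.0828.

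Markers of other cells were read on the same arrays. Of the 6 miRNAs listed for cardiac muscle cells, 4 were tested, 3 of these had a lower mean in MI than in Sham, and 0 were called (median log2 ratio -0.11). Their summed scaled signal was 10051 to 13406 in Sham and 9414 to 11788 in MI, with 11187 on MI replicate 4. All 7 miRNAs listed for fibroblasts were tested, with a median log2 ratio of 0.56, 2 lower and 0 called. Their sums were 2411 to 3179 in Sham and 2645 to 4055 in MI. This list included members of the miR-29 family, and its ratios ran from -0.19 for miR-29c-3p to 0.79. Of the leukocyte list 4 of 6 were tested, with a median of -0.02 and sums of 331 to 386 in Sham and 322 to 411 in MI, and miR-142-3p and miR-142-5p were detected on no array. The endothelial list had 3 of 4 tested, a median of -0.01 and sums of 575 to 745 in Sham and 720 to 959 in MI. For the erythrocyte list 2 of 4 were tested, with a median of -0.20 and sums of 198 to 251 in Sham and 162 to 214 in MI, while miR-144-3p and miR-144-5p were detected on no array. The part of the cell makeup in the miR-30 differences was not tested.

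YQFM was compared with MI to see whether the members differed after treatment. None of the 7 was called by limma, and none had an unadjusted p under 0.05, against 0% and 19% of the 263 miRNAs. The median log2 ratio of YQFM to MI was 0.10 over the members and -0.01 over all miRNAs tested, with 6 members of higher and 1 of lower mean, against 51.3% of all miRNAs with a lower mean. The groups overlapped for all 7 members, whereas 4.18% of the miRNAs tested had all YQFM arrays above all MI arrays and 2.28% had them below.

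For miR-30d-5p the YQFM arrays gave 7.13, 7.01, 7.23 and 7.01 on the log2 scale in replicates 1 to 4. They overlapped the MI arrays and lay below all Sham arrays. The ratio to MI was 0.10 (standard error 0.0828, limma adjusted p = 0.561), with a 95% interval from -0.08 to 0.29. For miR-30e-5p the YQFM values were 7.10, 7.12, 7.42 and 7.46, a log2 ratio to MI of 0.11 with an interval from -0.23 to 0.46, and of 0.27 without MI replicate 4 (limma adjusted p = 0.163). Both groups again overlapped, and 3 of the YQFM arrays lay above all MI arrays but replicate 4.

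miR-30b-5p had the largest of these differences. Its YQFM values were 6.64, 6.24, 6.52 and 6.40, which lay between MI replicate 4 and the other MI arrays, apart from YQFM replicate 2, which was level with MI replicate 1. The log2 ratio to MI was 0.20 (standard error 0.216, limma adjusted p = 0.780), with an interval from -0.28 to 0.67. Without MI replicate 4 it was 0.44 (adjusted p = 0.0559). For miR-30e-3p, with YQFM values of 4.66, 4.65, 4.81 and 4.47, the ratio was 0.18 (adjusted p = 0.619) and 0.34 without that array (adjusted p = 0.0808). The YQFM arrays of both members were thus above MI replicates 1 to 3 in most cases and below MI replicate 4 in all.

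The remaining members had the smallest ratios of YQFM to MI. In YQFM the log2 signals were 8.60, 8.37, 8.63 and 8.44 for miR-30a-5p, 8.54, 8.32, 8.51 and 8.26 for miR-30c-5p, and 5.39, 5.19, 5.33 and 5.11 for miR-30a-3p. The log2 ratios to MI were 0.03, 0.07 and -0.09 in the same order, and 0.12, 0.21 and -0.07 without MI replicate 4 (limma adjusted p = 0.518, 0.320 and 0.811). Slide 2 was the only slide with both groups and held 1 array of each. On it YQFM replicate 1 was lower than MI replicate 4 or level with it in all 7 members, with log2 ratios of -0.52 for miR-30e-5p, -0.35 for miR-30b-5p and -0.0035 for miR-30d-5p, values that have no replicate. For miR-30a-5p, miR-30b-5p, miR-30c-5p, miR-30e-5p and miR-30e-3p the sign on this slide was opposite to that of the groups as a whole, whereas miR-30d-5p and miR-30a-3p were level on it.

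**Figure D3:**
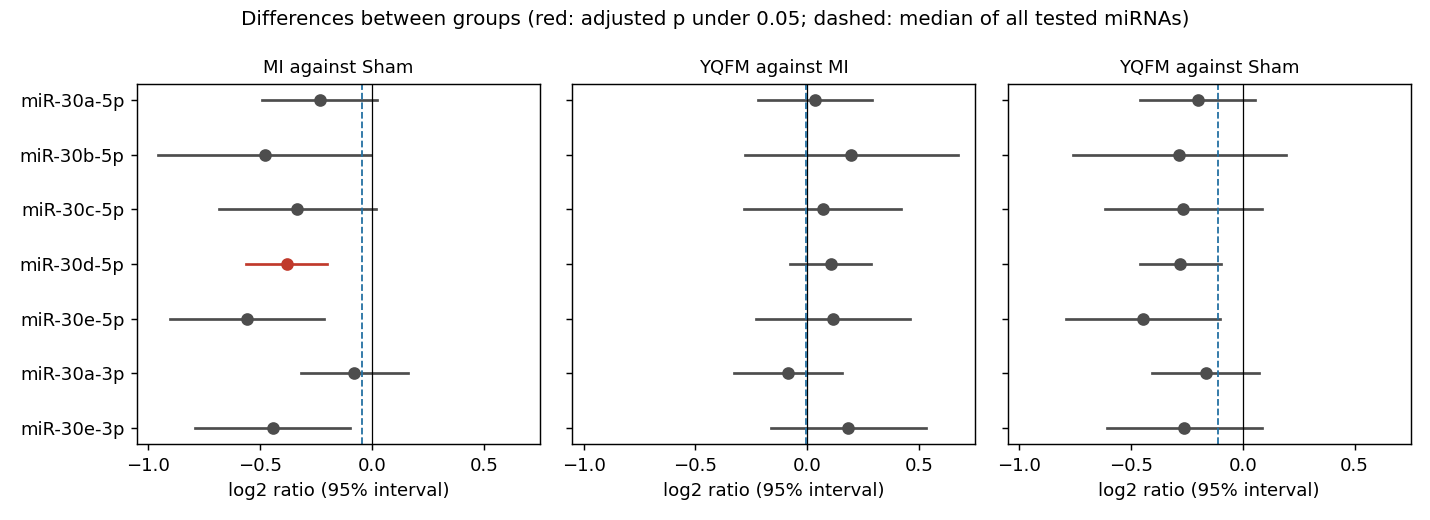
Log2 ratios (horizontal axes) of the 7 members in the 3 comparisons, with 95% intervals from limma over all 12 arrays, 4 per group. The dashed line is the median of the 263 tested miRNAs, at -0.04, -0.01 and -0.11, and miR-30d-5p in MI against Sham (red, -0.38) is the member with an adjusted p under 0.05.

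YQFM was also compared with Sham, to see where the treated rats stood relative to rats without infarction. The means of all 7 members were lower in YQFM, and 0 of 7 were called (limma), as were 0 of 263 miRNAs, or 0%. At an unadjusted p under 0.05, 2 members were lower, miR-30d-5p and miR-30e-5p, against 5.7% of all miRNAs tested. The median log2 ratio was -0.27 over the members and -0.11 over all miRNAs, of which 69.6% had a lower mean in YQFM. This comparison and that of MI with Sham share the Sham arrays, so their directions are not independent.

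The log2 ratio of YQFM to Sham was -0.28 for miR-30d-5p (standard error 0.0828) and -0.44 for miR-30e-5p (standard error 0.157), each with a limma adjusted p of 0.452. miR-30d-5p had the smallest unadjusted p of all 263 miRNAs in this comparison. For these members and for miR-30a-5p the groups did not overlap, so that 3 of the 7 had all YQFM arrays below all Sham arrays, against 6.08% of all miRNAs tested. For miR-30a-5p the gap between the highest YQFM and the lowest Sham array was below the second decimal. The ratios of the other members were -0.28 for miR-30b-5p, -0.27 for miR-30c-5p, -0.26 for miR-30e-3p, -0.20 for miR-30a-5p and -0.17 for miR-30a-3p. Slide 3 held all 4 Sham arrays and 3 of the YQFM arrays, each group in its own row of the slide. Within it all 7 members had a lower mean in YQFM, with log2 ratios from -0.39 for miR-30e-5p to -0.21 for miR-30a-3p, and 0 were called (smallest adjusted p among the members 0.462). For miR-30d-5p the ratio within slide 3 was -0.29, and every MI and YQFM array was below every Sham array. All Sham arrays lay in one row of slide 3, and the part of this position in the differences was not tested.

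The strands of a hairpin and the neighbours of a cluster were then compared within each array, a difference that does not depend on the scaling of the array. miR-30a-5p minus miR-30a-3p gave 3.29 ± 0.07 for Sham on the log2 scale (mean ± SD of 4 rats), 3.13 ± 0.16 for MI and 3.25 ± 0.07 for YQFM. miR-30e-5p minus miR-30e-3p gave 2.81 ± 0.19 for Sham, 2.69 ± 0.12 for MI and 2.62 ± 0.26 for YQFM. These differences between probes are no ratio of strands, and what can be read is whether they changed between groups. For the strands of miR-30a the change from Sham to MI was -0.16 (exact two-sided permutation test, p = 0.143), and for those of miR-30e it was -0.11 (exact permutation p = 0.343).

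miR-30d-5p minus miR-30b-5p, the pair from one cluster, was 0.55, 0.79, 0.55 and 0.67 in Sham replicates 1 to 4 and 0.76, 1.02, 1.02 and 0.15 in MI. MI replicate 4 lay below all other arrays and MI replicates 2 and 3 above all others. The change of the mean from Sham to MI was 0.10 (exact permutation p = 0.743), with an SD of 0.41 in MI and 0.11 in Sham. It was 0.29 without MI replicate 4 and 0.0016 without MI replicate 3. Over the 9 such tests, 3 pairs in 3 comparisons, 0 passed, with Benjamini-Hochberg adjusted p from 0.771 to 0.971. With 4 rats against 4 the smallest p that this test can give is 0.0286, which a single pair would carry to an adjusted p of 0.257, and 6 of the 9 tests would have to reach it to pass. The design left these tests little room to pass, so that they say little about whether the pairs changed alike.

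Relatives outside the list were read as well. The strands miR-30c-1-3p and miR-30c-2-3p were detected on all arrays and miR-30b-3p on 10 of 12, whereas miR-30d-3p and miR-384-5p, the latter with the miR-30 seed, were detected on none. The mature sequences of the miR-30c 3p strands and of miR-384-5p are shown for their seeds, in capitals.
miR-30c-1-3p: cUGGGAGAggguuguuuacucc
miR-30c-2-3p: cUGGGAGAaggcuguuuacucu
miR-384-5p: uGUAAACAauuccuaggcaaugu
For miR-30c-2-3p, which was called in no comparison, the mean was higher in MI than in Sham. Its log2 signal was 4.26, 3.91, 4.12 and 4.17 in Sham, 4.46, 4.38, 4.71 and 4.03 in MI, and 4.13, 4.04, 3.95 and 3.86 in YQFM. MI replicates 1 to 3 lay above all Sham and YQFM arrays, and MI replicate 4 lay among them. MI was higher than Sham by a log2 ratio of 0.28 (standard error 0.138, limma adjusted p = 0.197), and that of YQFM to MI was -0.40 (adjusted p = 0.134). The ratios of MI to Sham were -0.04 for miR-30c-1-3p and -0.05 for miR-30b-3p, both close to the floor of 2.38 on the log2 scale. MI replicate 4 was lower than the mean of the other MI arrays in these strands, by -0.49 as a difference in log2 signal for miR-30c-2-3p, so it was not higher in every miRNA of these hairpins.

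**Figure D4:**
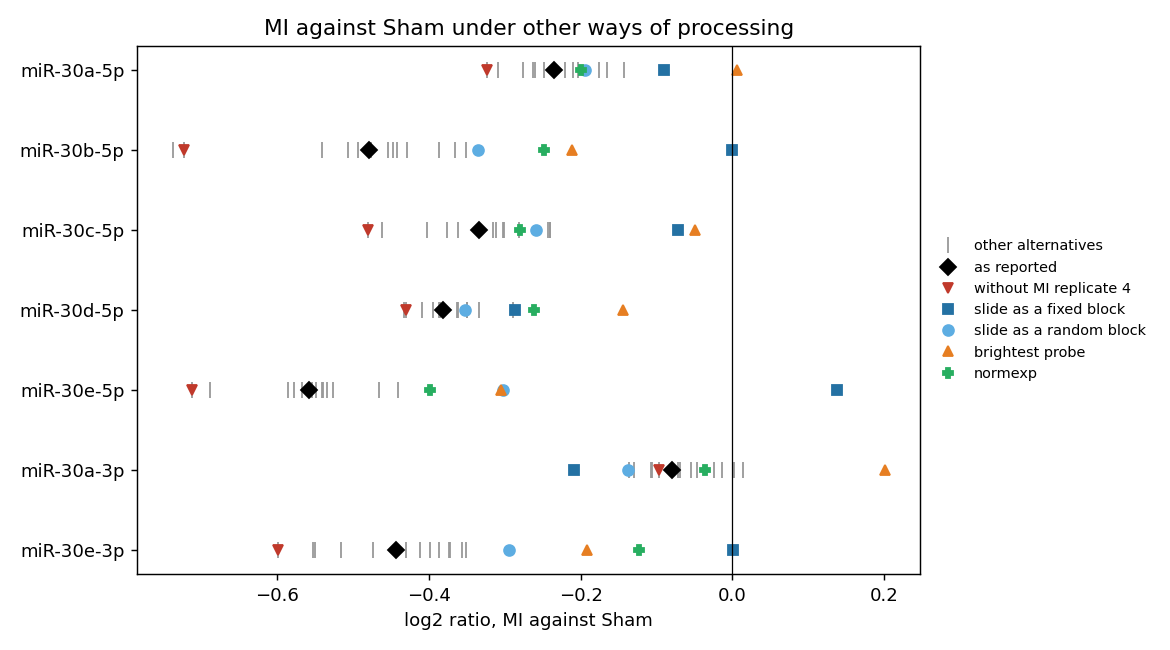
Log2 ratio of MI to Sham (horizontal axis) of the 7 members as reported (diamonds) and under other ways of processing, with leave-one-out and scaling alternatives as grey ticks. miR-30d-5p lies between -0.43 and -0.14 in all of them. miR-30e-5p lies at -0.71 without MI replicate 4 and at 0.14 with the slide as a fixed block. With that block the ratios rest on MI replicate 4 among the MI arrays.

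The profiles most like those of the family were found by the root mean square difference over the 12 arrays between log2 signals centered on their own mean, among the 192 other miRNAs detected on all arrays. The mean of the 5p members was most closely followed by miR-22-3p (0.0780), miR-499-5p (0.120), miR-139-3p (0.123), miR-149-3p (0.129) and miR-149-5p (0.130). The 5p members themselves, which are part of that mean, differed from it by 0.0894 for miR-30a-5p to 0.145 for miR-30e-5p. miR-22-3p, a miRNA abundant in muscle, therefore lay closer to the mean than any of the 5p members did. To miR-30d-5p alone the closest were miR-22-3p (0.0874), miR-149-3p (0.0992), miR-378b (0.115), miR-92a-3p (0.115) and miR-29c-3p (0.117). The arrays behind these values share the scaling, the slides and the position of MI replicate 4, and the values are a description. From Sham to MI the log2 ratio was -0.44 for miR-22-3p and -0.40 for miR-149-3p (limma adjusted p = 0.0279 for each), beside -0.38 for miR-30d-5p, and it was -0.22 for miR-499-5p (adjusted p = 0.426), which is encoded within a cardiac myosin gene.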

How the data were processed

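The members and lists were chosen with earlier results of these data known. The authors deposited scanner output, in which the intensity of each spot was extracted and background-subtracted by Feature Extraction 10.7.1.1 and not scaled between arrays, and a table of processed intensity values, equal to 0.1 where a miRNA was not detected. Control and outlier spots were left out. Intensities were averaged over spots and then probes, divided by each array's 75th percentile (taken over 201 miRNAs that all arrays detected) and brought back to the mean percentile, set to a floor of 5.20 (2.38 as log2) and taken as log2. Detection required that over 50% of a probe's spots stood well above background, and 263 miRNAs detected on at least 2 of 4 arrays of a group were tested. Groups were compared over all 12 arrays with limma 3.58.1 (R 4.3.3), Benjamini-Hochberg adjustment and a threshold of 0.05. The comparison was tried on simulated data with independent arrays and no slide effect, which does not show how it fares with these slides. Strand and cluster pairs were compared by exact permutation tests. The text names all 7 members, the other miR-30 strands, miR-384-5p and the 5 miRNAs most like the 5p mean and miR-30d-5p. Alternatives were normexp (offset 50), the authors' table, scaling over all miRNAs, quantile normalization, no scaling, other filters, the brightest probe, slide or replicate number as a block, other sets of arrays and the methods' t-test. Leaving out both arrays of slide 2 was chosen after seeing the data. Sequences were taken from RefSeq tables (GRCr8) and the array annotation with Python 3.11.15. Plots used matplotlib 3.10.9. The number of arrays limits the precision. RT-PCR and cell experiments were not analysed here.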

Additional observations from a re-analysis of the deposited data

How the results depend on the processing

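For MI against Sham the members had the reported direction in 183 of 189 values over 27 alternatives. For YQFM against Sham they had it in 196 of 196. Some alternatives leave the ratio unchanged by design, such as the t-test, other filters or leaving out an array of the group not compared. Their values are part of these counts and could not turn. For YQFM against MI the direction held in 169 of 196, with 0 calls wherever a test was run. The values within a slide, with 1 array per group, had no test and repeat those of the slide as a fixed block. miR-30d-5p was lower in MI in all 27 alternatives and past the threshold in 13 (adjusted p from 0.00443 to 0.625). The number of members called in MI against Sham was 1. It was 0 with normexp, the authors' table, scaling over all miRNAs, quantile normalization, no scaling, only miRNAs detected on all arrays, the brightest probe and the slide as a fixed or random block (consensus correlation 0.456). It was 4 without the arrays with conflicting labels, where 58 of 263 miRNAs were called. Without MI replicate 4 and YQFM replicate 1 it was 5, with 69 of 263 miRNAs called. When single arrays were left out it was 0 to 5, with 4 to 62 of 263 miRNAs called. All miRNAs called fell from 19 to 0 with normexp and rose to 62 without MI replicate 4. In YQFM against MI, 0 of all miRNAs were called, 28 without MI replicate 4 and 23 without YQFM replicate 1, again with no miR-30 member. The methods' t-test called 6 miRNAs after Benjamini-Hochberg adjustment, miR-30d-5p being the only member, and 59 at the threshold without adjustment. The filter set to none tested the 314 miRNAs above the floor on any array. The cause of these changes was not tested.

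Directions turned as follows. In MI against Sham, log2 ratios of miR-30a-3p were 0.014 (scaling over all miRNAs), 0.0019 (quantile) and 0.20 (brightest probe). That of miR-30a-5p was 0.0056 (brightest probe). With the slide as a fixed block they were 0.00033 for miR-30e-3p and 0.14 for miR-30e-5p, resting on the MI array of slide 2. In YQFM against MI, miR-30a-3p was 0.10 in the authors' table and 0.038 without scaling. The brightest probe gave -0.10 for miR-30a-5p, -0.10 for miR-30c-5p, -0.032 for miR-30d-5p and -0.028 for miR-30e-5p. This setting moved the median of all miRNAs by -0.094. At the reported scaling both probes of each of these members had a higher mean in YQFM than in MI. With the slide as a fixed block, this comparison rests on slide 2 alone, so its values are the same as those within slide 2. They were -0.14 for miR-30a-5p, -0.35 for miR-30b-5p, -0.24 for miR-30c-5p, -0.0035 for miR-30d-5p, -0.27 for miR-30e-3p and -0.52 for miR-30e-5p. The slide as a random block gave -0.033 for miR-30a-5p, -0.013 for miR-30b-5p, -0.050 for miR-30c-5p and -0.13 for miR-30e-5p. With single arrays left out, YQFM against MI ran from -0.036 to 0.12 for miR-30a-5p, from -0.023 to 0.21 for miR-30c-5p and from -0.0034 to 0.27 for miR-30e-5p, which was 0.33 without both arrays of slide 2. Of the pair differences, normexp gave 0.031 for the miR-30e strands in YQFM against MI, and -0.013 (MI against Sham) and -0.023 (YQFM against Sham) for miR-30d-5p minus miR-30b-5p. The brightest probe gave -0.0086 for that pair in YQFM against Sham, and leaving out single arrays gave 0.0016 to 0.29 in MI against Sham, -0.29 to 0.0032 in YQFM against MI, and -0.034 to 0.056 in YQFM against Sham.

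The median of all miRNAs moved by more than 0.1 in some settings. In MI against Sham it moved by 0.19 (brightest probe), -0.13 (slide as a fixed block) and -0.11 (slide as a random block), in YQFM against MI by 0.21 (authors' table) and 0.11 (no scaling), and in YQFM against Sham by 0.17 (authors' table), 0.14 (no scaling), 0.11 (scaling over all miRNAs) and 0.11 (brightest probe).

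The replicate numbers were not shown to pair rats, since the deviations of same-numbered arrays correlated from -0.64 to 0.32, over 0.1 in 4 of 12 pairs. With the replicate block 1 member was called in MI against Sham, now miR-30e-5p (adjusted p = 0.0433) and not miR-30d-5p (adjusted p = 0.0511), and 10 of 263 miRNAs in place of 19.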
